A study of Mus musculus with 8 samples.

Results

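The cells described here were activated T cells that had kept a low share of mitochondrial transcripts. They were the cells of the 4 stimulated libraries for which the deposited cell annotation gave less than 10% of UMIs from mitochondrially encoded genes (a UMI, or unique molecular identifier, stands for 1 captured transcript). The limit left 3911 of 6832 stimulated cells and of 12846 cells in all. By the deposited classes, 2876 of them were CD4 cells and 1035 were CD8 cells. T cells were purified by magnetic separation from the spleens of wild-type (WT) mice and of SDHA-KO mice, which carry Sdha fl/fl alleles and a CD4-Cre transgene. CD4-Cre deletes in thymocytes that pass through the stage with both coreceptors, the precursors of alpha-beta T cells of the CD4 and the CD8 class. The cells were cultured for 48 hours with soluble antibodies to CD3 and CD28, and dead cells were removed before 3' single-cell libraries were made. There were 2 libraries per genotype, and the mice were 8 to 12 weeks old. Nothing in the labels says whether the 2 libraries of a group came from separate mice, so p-values measure the spread between these libraries, which may be technical.

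SDHA is the catalytic subunit of succinate dehydrogenase (complex II), which oxidizes succinate to fumarate in the TCA cycle and passes the electrons to ubiquinone in the electron transport chain. T cells that are activated through CD3 and CD28 grow, raise glycolysis and mitochondrial biogenesis, divide and start to make effector proteins. HIF-1, a transcription factor that hydroxylation by oxygen- and 2-oxoglutarate-dependent enzymes keeps low, drives genes of glucose uptake and glycolysis and is also raised by T cell receptor signals. In droplet data, a high share of mitochondrial transcripts together with few UMIs is commonly met in cells that have lost cytoplasmic RNA, and many workflows leave such cells out. The comparison asked which differences between SDHA-KO and WT cells were still found once those cells were left out.

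The limit left out most WT cells and few KO cells. It kept 31.8% and 35.5% of the stimulated cells in the WT libraries (33.7% ± 2.67, SD, n = 2) and 80.1% and 83.9% in the KO libraries (82.0% ± 2.71, SD, n = 2), and the groups did not overlap. Of the CD4 class, 40.0% ± 1.29 of WT and 88.5% ± 2.21 of KO cells were kept (SD, n = 2), and in the CD8 class 26.8% ± 3.51 and 64.6% ± 0.587. No test was run on these shares, since the smallest p that an exact permutation of 2 against 2 libraries can give is 0.33. The cells that were kept held 68.2% and 72.0% of the UMIs of the WT libraries and 93% and 94.6% of those of the KO libraries. The sums analyzed had 31519597 and 36985703 UMIs in WT and 43763896 and 46063493 UMIs in KO.

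The low mitochondrial cells of the 2 genotypes were not alike in size of transcriptome. The median low mitochondrial cell had 61452 and 61306 UMIs in the WT libraries but 29650.5 and 29176 UMIs in the KO libraries. The gap was wide in the CD4 class (59713.5 and 59710.5 against 26637.5 and 26960.5 UMIs) and narrower in the CD8 class (64638 and 64273 against 47146.5 and 45781.5 UMIs). The cells left out had medians of 11076 and 10856 UMIs in WT and 8550 and 8231 UMIs in KO. Of the low mitochondrial cells, 14.1% and 14.8% in WT and 56.3% and 56.5% in KO had between 15000 and 40000 UMIs. The WT cells in that range, 76 and 95 cells, had median mitochondrial shares of 5.79% and 5.51%, against 1.25% and 1.16% in the 743 and 797 KO cells. Just inside the limit, between 9% and 10%, lay 46 WT and 53 KO cells with medians of 17194 and 11271 UMIs. Just outside it, between 10% and 11%, lay 50 WT and 27 KO cells with medians of 15755.5 and 8886 UMIs. Only 4 of the 3911 cells shared a barcode with a cell of another library.

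**Figure D1:**
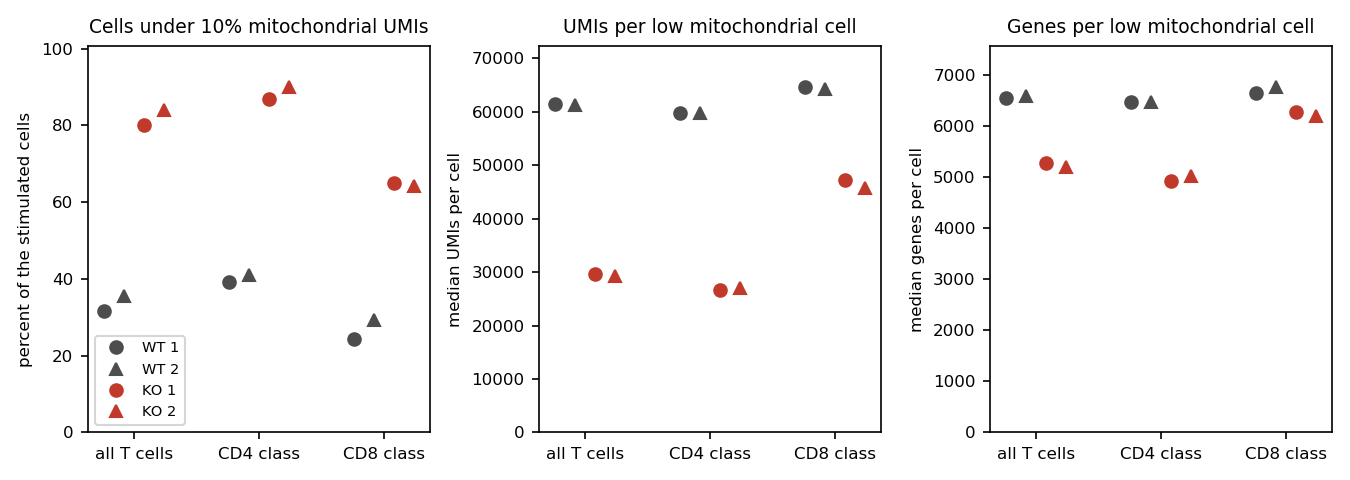
Share of stimulated cells under the mitochondrial limit, and median UMIs and genes of the cells kept, for each of the 4 stimulated libraries (circles, replicate 1; triangles, replicate 2; gray, WT; red, KO), in all T cells and in the CD4 and CD8 classes. In each panel and class the WT and the KO libraries lie apart, with more KO cells kept (80.1% and 83.9%, against 31.8% and 35.5%) and fewer UMIs per KO cell.

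The libraries carried the markers of T cells, with all 8 of 8 T cell markers found. Summed over the markers they stood at 2446 and 2479 CPM (UMIs of the gene scaled to a common library total, here without TMM) in WT and 3064 and 3227 CPM in KO. Among the markers of other cells, those of gamma-delta T cells and NK cells were higher in both KO libraries than in both WT libraries. The 11 gamma-delta T cell markers, of which 1 was at 0 in all 4 libraries, summed to 12.8 and 9.84 CPM in WT and 111 and 83.6 CPM in KO. In the CD8 class they summed to 23.9 and 18.1 CPM in WT and 251 and 252 CPM in KO. The 7 NK cell markers, 1 at 0 throughout, ranged from 1.62 to 1.78 CPM in WT and from 10.9 to 24.8 CPM in KO. The sums of B cell markers (11 genes, 43.5 to 317 CPM in WT and 68.2 to 207 CPM in KO) and regulatory T cell markers (4 genes, 566 to 579 and 492 to 646 CPM) overlapped between the genotypes. The latter sum was mostly Il2ra (318 and 330 CPM in WT, 424 and 315 in KO) and Ctla4 (213 and 224 in WT, 132 and 99.6 in KO). Ctla4 was thus lower in KO, while Foxp3 (1.56 and 0.757 CPM in WT, 1.92 and 2.41 in KO) and Ikzf2 (33.15 and 24.44 in WT, 87.83 and 74.77 in KO) were higher. The 10 myeloid markers, 3 of them at 0 throughout, summed to 75.8 to 78.3 CPM in WT and 142 to 152 CPM in KO, but nearly all of this was Cst3, a cystatin that many cell types express (76.0 and 73.3 CPM in WT, 135 and 146 CPM in KO), while Csf1r, Adgre1, Itgam, Spi1 and Mpeg1 were each under 1 CPM. Tcrg-V6 among the gamma-delta markers, Klra8 among the NK markers, and Lyz2, S100a8 and S100a9 among the myeloid markers were those at 0 throughout. The B cell markers did not move together. Igkc, the kappa light chain of B cells, had 1 and 7 UMIs in WT and 5034 and 330 in KO, and 1 cell of the first KO library held 2443 of them. Other members were highest in the first WT library. Iglc2, a lambda light chain gene, had 5875 and 0 UMIs in WT and 278 and 0 in KO. Jchain had 761 and 0 in WT and 8 and 0 in KO. The part of these cells in the results below was not tested, except where values without Trdc cells are given. The CD4 class made up 62.1% and 61.9% of the low mitochondrial cells in the WT libraries and 74.9% and 82.0% in the KO libraries, so that values over all T cells rest on unequal shares of the 2 classes. The deposited annotation called from 88.7% to 91.1% of the low mitochondrial cells effector memory (Tem) in all 4 libraries.

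The gamma-delta signal sat in the CD8 class of the KO libraries. Trdc, the constant gene of the T cell receptor delta chain, had at least 1 UMI in 50.3% and 49.2% of low mitochondrial KO cells called CD8, against 5.85% and 5.74% of WT CD8 cells. With each cell cut at random to 5000 UMIs, a Trdc UMI was left in 28.5% (95% Wilson interval 23.9 to 33.6) and 28.0% (22.8 to 33.8) of KO CD8 cells and 2.94% (1.36 to 6.27) and 1.64% (0.639 to 4.14) of WT CD8 cells. Of the CD4 class, 10.4% and 8.56% of KO and 2.68% and 4.04% of WT cells had a Trdc UMI, and after thinning 3.90% (2.85 to 5.33) and 3.26% (2.37 to 4.49) in KO and 1.5% (0.641 to 3.46) and 1.55% (0.711 to 3.33) in WT. These intervals cover counting error only, and from 0 to 53 cells under 5000 UMIs were left out per library and class. Many CD8 results below rest on the whole class, Trdc cells included. For some lists and genes, values of stricter sets are therefore given as well. The first held cells with no Trdc UMI (193 and 230 WT and 165 and 129 KO CD8 cells). The second held cells with a UMI of their own coreceptor and none of the other or of Trdc (182 and 209 WT and 146 and 113 KO CD8 cells, 173 and 202 WT and 550 and 675 KO CD4 cells). These sets also hold smaller KO CD8 cells. The mean UMIs per KO CD8 cell were 50318 and 51012 in the whole class, 40514 and 41478 with no Trdc UMI and 39316 and 40089 in the coreceptor-only set, against 60014 to 62127 in the WT libraries of all 3.

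**Figure D2:**
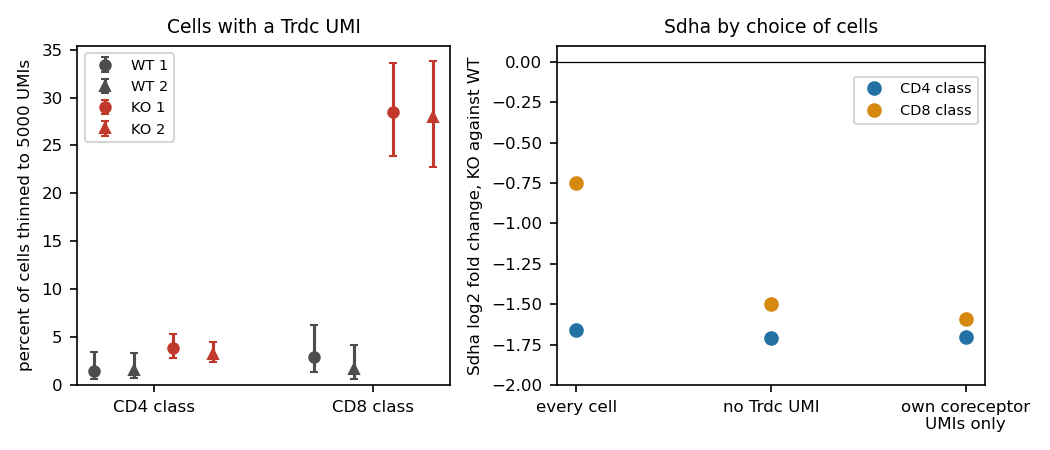
Left, percent of low mitochondrial cells with a Trdc UMI after thinning to 5000 UMIs per cell, by class and library, with 95% Wilson intervals. Right, the fitted Sdha log2 fold change, KO against WT, in every low mitochondrial cell of the class, in cells with no Trdc UMI, and in cells with UMIs of their own coreceptor only. The KO CD8 libraries stand apart at 28.5% and 28.0%, and the CD8 value for Sdha moves from -0.75 to -1.5 and -1.59.

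Sdha itself was lower in the low mitochondrial KO cells. Its level was 78.4 and 77.5 CPM in the WT libraries and 32.9 and 30.4 CPM in the KO libraries (log2 fold change -1.30 ± 0.06, adjusted p = 2.12e-06, edgeR's quasi-likelihood test with Benjamini-Hochberg adjustment over all genes tested, which is the test behind every adjusted p given here; CPM of single genes are from here on scaled by TMM, which corrects for composition). Errors of fold changes are standard errors. The CD4 class had 79.6 and 78.2 CPM in the WT libraries and 25.1 and 24.9 CPM in the KO libraries (log2 fold change -1.66 ± 0.07, adjusted p = 7.30e-08), and in the CD8 class 74.6 and 74.4 CPM in the WT libraries and 44.8 and 43.9 CPM in the KO libraries (log2 fold change -0.75 ± 0.07, adjusted p = 3.17e-05). The fall in the CD8 class was smaller than in the CD4 class (difference 0.89 ± 0.08, adjusted p = 0.00106). In CD8 cells with no Trdc UMI it was -1.5, and in the coreceptor-only CD8 set -1.59, close to the value of -1.70 in the coreceptor-only CD4 set. In the high mitochondrial cells that were left out, Sdha stood at 79.5 and 76.9 CPM in WT and 80.1 and 69.5 CPM in KO, and the KO effect was more negative in the low than in the high mitochondrial cells (difference -1.24 ± 0.09, adjusted p = 1.03e-05, and -0.96 within CD4 and -0.88 within CD8).

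The other subunits of complex II differed by less than the test could call. Sdhb, the iron-sulfur subunit, was measured at 140.2 and 142 CPM in the WT libraries and 149 and 154 CPM in the KO libraries (log2 fold change 0.10 ± 0.06, adjusted p = 0.216). Sdhc (0.05, adjusted p = 0.559) and Sdhd (0.08, adjusted p = 0.481), the membrane anchors, did not pass the test either. Over all stimulated cells the same 3 genes had log2 fold changes of 0.53, 0.41 and 0.46 and did pass it. The assembly factors Sdhaf1 (0.46) and Sdhaf4 (0.66), which help mature the complex, rose with and without the limit.

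In the low mitochondrial cells 4997 of 14549 genes tested (34.3%) passed an adjusted p of 0.05, of which 2538 (17.4%) were higher and 2459 (16.9%) lower in KO. In the CD4 class 4492 of 13710 (32.8%, with 16% higher and 16.7% lower) passed, and in the CD8 class 4459 of 12600 (35.4%, with 18.4% higher and 17% lower). Without composition normalization the split turned to 4417 higher and 1548 lower in all T cells, 4222 and 1363 in CD4 and 2996 and 1686 in CD8, with the median of all genes shifted by 0.156, 0.190 and 0.0745 on the log2 scale. All changes below are relative to the median gene. In cells of 15000 to 40000 UMIs 2938 genes were higher and 2732 lower of 10341 tested. In cells of over 40000 UMIs these counts were 2365 and 2276 of 13599. They were 1860 and 1900 of 11459 in the coreceptor-only CD8 set, and 1797 and 1984 of 12791 in the CD4 one. Counts of list members in these sets are to be read against them. With no mitochondrial limit, 47.1% of genes passed in all stimulated T cells (26.2% higher and 21.0% lower), 43.2% in the CD4 class (22.7% and 20.5%) and 50.4% in the CD8 class (26.8% and 23.5%).

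A part of the differences seen in all stimulated cells remained. Of 7195 genes called over all stimulated T cells, 4050 (56.3%) were called in the same direction in the low mitochondrial cells, 2978 were no longer called, 127 were not tested and 40 were called in the opposite direction. A further 907 genes were called with the limit and not without it. The share called in the same direction was 39.96% by DESeq2, 35.7% in thinned cells, 34.8% in cells of the central memory label and 35.4% to 49.5% with 1 library left out (35.4% without WT replicate 2, 36.9% without WT replicate 1). Among CD4 cells 3564 of 6160 (57.9%) and in the CD8 class 3839 of 6595 (58.2%) were called in the same direction, with 5 and 22 opposite calls. The 2 fits share the low mitochondrial cells, so these counts describe what the limit changes and are no independent repeat. Differences that remained had a median size of 0.73 over all cells and 0.614 in the low mitochondrial cells, and those that were lost went from 0.432 to 0.16, all on the log2 scale. A test against a 2-fold change called 364 genes (2.5%) in all T cells, 424 (3.09%) in CD4 and 211 (1.67%) in CD8.

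HIF-1 target genes remained lower in KO in both classes. Of 30 tested, 0 rose and 28 fell in the low mitochondrial cells, with a median log2 fold change of -1.6, against -1.36 over all stimulated cells and a median of 0.000626 over all 14549 genes. Among CD4 cells 27 of 30 fell (median -1.49) and in the CD8 class 28 of 28 (median -1.66). The median also stayed low in cells of 15000 to 40000 UMIs (-1.64), in cells of over 40000 UMIs (-1.7) and in the coreceptor-only CD8 set (-1.47).

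The promoters of the HIF-1 target list were read for the core of the hypoxia response element, the sequence that HIF-1 binds. The list was chosen as targets of HIF-1, so a high share of matches is expected from that choice. The cause of the fall was not tested. RefSeq promoters (GRCm38.p6, 250 bases before to 50 after the start) were matched for 26 of the 30 genes. ACGTG or GCGTG, on either strand of the 300 bases, was found in 22 of the 26 (84.6%), against 61.8% of the 10774 tested genes with a promoter in the table and 43.8% of all 27025 promoters. The reverse complement of ACGTG is CACGT, so 1 palindromic stretch can count on both strands. The 250 bases before the start are shown for 3 members, in the direction of transcription, with each match in capitals, because they hold 1, 2 and 5 matches. They lie at chr12:54203875-54204124 (minus strand) for Egln3, chr4:119108495-119108744 (plus strand) for Slc2a1 and chr7:138909507-138909756 (minus strand) for Bnip3.
Egln3: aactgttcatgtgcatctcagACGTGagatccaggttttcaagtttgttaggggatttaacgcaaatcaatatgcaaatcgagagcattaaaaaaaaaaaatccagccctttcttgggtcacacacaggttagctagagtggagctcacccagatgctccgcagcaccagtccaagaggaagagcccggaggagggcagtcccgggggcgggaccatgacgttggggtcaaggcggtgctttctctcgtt
Slc2a1: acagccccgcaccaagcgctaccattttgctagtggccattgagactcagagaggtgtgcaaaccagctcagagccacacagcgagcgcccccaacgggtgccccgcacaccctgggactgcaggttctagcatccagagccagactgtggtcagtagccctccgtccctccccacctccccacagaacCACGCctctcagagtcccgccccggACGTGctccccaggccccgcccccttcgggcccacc
Bnip3: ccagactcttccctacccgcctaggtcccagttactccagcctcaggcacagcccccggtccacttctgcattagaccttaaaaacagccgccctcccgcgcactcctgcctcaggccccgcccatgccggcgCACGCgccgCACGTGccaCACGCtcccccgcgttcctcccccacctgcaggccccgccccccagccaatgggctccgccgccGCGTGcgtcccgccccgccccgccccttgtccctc
Gbe1, Vegfa, Mxi1 and Vldlr had no match in this window, which says only that these letters are not in it.

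Egln3, a prolyl hydroxylase that marks HIF-alpha for destruction and is itself a HIF target, had the largest fall among list members of at least 20 CPM. It stood at 150.2 and 169.9 CPM in the WT libraries and 25.5 and 17.1 CPM in the KO libraries (log2 fold change -2.91 ± 0.16, adjusted p = 4.67e-06). Slc2a3, the glucose transporter GLUT3, was measured at 221 and 255 CPM in the WT libraries and 44.7 and 31.5 CPM in the KO libraries (log2 fold change -2.65 ± 0.14, adjusted p = 4.19e-06). All KO values of both genes lay far below the WT values in each class. Bnip3, a mitophagy receptor, was at 143 and 168 CPM in the WT libraries and 31.5 and 12.5 CPM in the KO libraries (log2 fold change -2.82 ± 0.32, adjusted p = 1.87e-04). Gbe1, the glycogen branching enzyme, was at 101 and 103 CPM in the WT libraries and 17.8 and 15.2 CPM in the KO libraries (log2 fold change -2.63 ± 0.08, adjusted p = 3.50e-07). Ndrg1 (-2.44), a stress-induced gene, Pdk1 (-1.29), which holds pyruvate out of the TCA cycle, and Slc2a1 (-1.20), the transporter GLUT1, fell as well. Their values over all stimulated cells were -2.32, -1.46 and -1.33.

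Glycolysis genes fell in both classes. Of 19 tested, 1 rose and 16 fell (median -1), against a median of -0.611 over all stimulated cells. The medians were -1.13 in CD4 (2 higher and 17 lower of 19) and -0.754 in CD8 (1 higher and 16 lower of 19), and -1.02 in the coreceptor-only CD8 set. In cells of 15000 to 40000 UMIs the median for all T cells was -0.396, with 2 higher and 10 lower. Hk2, the hexokinase induced by activation, was at 157 and 158 CPM in the WT libraries and 90.9 and 66.7 CPM in the KO libraries (log2 fold change -1.0 ± 0.13, adjusted p = 4.65e-04). Ldha, which makes lactate from pyruvate, was at 1980 and 2089 CPM in the WT libraries and 1353 and 1184 CPM in the KO libraries (log2 fold change -0.68 ± 0.08, adjusted p = 1.87e-04), and in cells of 15000 to 40000 UMIs its log2 fold change was 0.10. Slc16a3, the lactate exporter MCT4, fell by 1.57 on the log2 scale. In CD4 cells Aldoc, an aldolase isozyme, had the largest fall of the list (-3.50). Ldhb, the lactate dehydrogenase isozyme that favors pyruvate, was the member that rose (log2 fold change 1.06 ± 0.12, adjusted p = 1.89e-04).

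Sterol and fatty acid synthesis genes remained low too. Of 29 tested, 0 rose and 27 fell (median -1.33), with -1.2 over all stimulated cells and -1.45 in cells of 15000 to 40000 UMIs. Mvd, a decarboxylase of the mevalonate pathway, was at 39.6 and 39.7 CPM in the WT libraries and 9.9 and 7.88 CPM in the KO libraries (log2 fold change -2.16 ± 0.12, adjusted p = 5.18e-06). Hmgcs1, which starts that pathway, was at 121 and 122 CPM in the WT libraries and 31.6 and 30 CPM in the KO libraries (log2 fold change -1.98 ± 0.07, adjusted p = 4.09e-07). In the CD8 class 24 of 29 fell and 2 rose (median -0.924), among the latter Fasn, the fatty acid synthase (0.61). In the coreceptor-only CD8 set 0 rose and 25 fell, with a median of -1.2.

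The integrated stress response, the ATF4-driven program that supplies amino acids and answers mitochondrial stress, was lower in KO. Of 18 genes tested, 1 rose and 16 fell (median -1.77, against -1.48 over all stimulated cells). The medians were -2.1 in CD4 and -1.23 in CD8, and -0.7 in the coreceptor-only CD8 set. In cells of 15000 to 40000 UMIs the median was -0.767, with 1 higher and 10 lower. Asns, asparagine synthetase, was at 105 and 84.7 CPM in the WT libraries and 26.2 and 17.2 CPM in the KO libraries (log2 fold change -2.13 ± 0.20, adjusted p = 6.87e-05). Ddit3, which encodes the stress factor CHOP, was at 40.4 and 41.8 CPM in the WT libraries and 8.51 and 7.13 CPM in the KO libraries (log2 fold change -2.40 ± 0.13, adjusted p = 5.04e-06). Trib3, a pseudokinase induced by ATF4 and CHOP, fell (-2.60), and Chac1, which degrades glutathione, fell from levels under 10 CPM (-1.72). Vldlr (-5.28) and Stc2 (-3.95) had more negative log2 fold changes than Trib3. With Ero1l, these 2 genes are also in the list of HIF-1 targets, so the 2 lists are not separate sets. Atf4 itself fell by 0.55 on the log2 scale (adjusted p = 8.69e-04), while over all stimulated cells it did not pass the test (-0.19, adjusted p = 0.0627). Its value was 0.24 in cells of 15000 to 40000 UMIs.

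Neighboring amino acid genes gave a mixed picture. Of 18 serine synthesis and one-carbon genes 4 rose and 10 fell (median -0.321, against 0.0107 over all stimulated cells and 0.313 at 15000 to 40000 UMIs). Psph, the last enzyme of serine synthesis, was at 206 and 173 CPM in the WT libraries and 85.4 and 74.4 CPM in the KO libraries (log2 fold change -1.25 ± 0.10, adjusted p = 2.92e-05), with 0.0028 in cells of 15000 to 40000 UMIs. Phgdh, the first enzyme, fell (-0.79, with 0.31 at 15000 to 40000 UMIs), and Mthfd1, a cytosolic folate enzyme, rose (0.64). Of 20 cytosolic aminoacyl-tRNA synthetases, which charge tRNAs with amino acids, 1 rose and 13 fell (median -0.338), led by Nars (-1.23). Mt1, a metallothionein that binds zinc and other metals, was at 326 and 471 CPM in the WT libraries and 36.7 and 14.4 CPM in the KO libraries in the CD4 class (log2 fold change -3.98 ± 0.33, adjusted p = 5.68e-06).

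**Figure D3:**
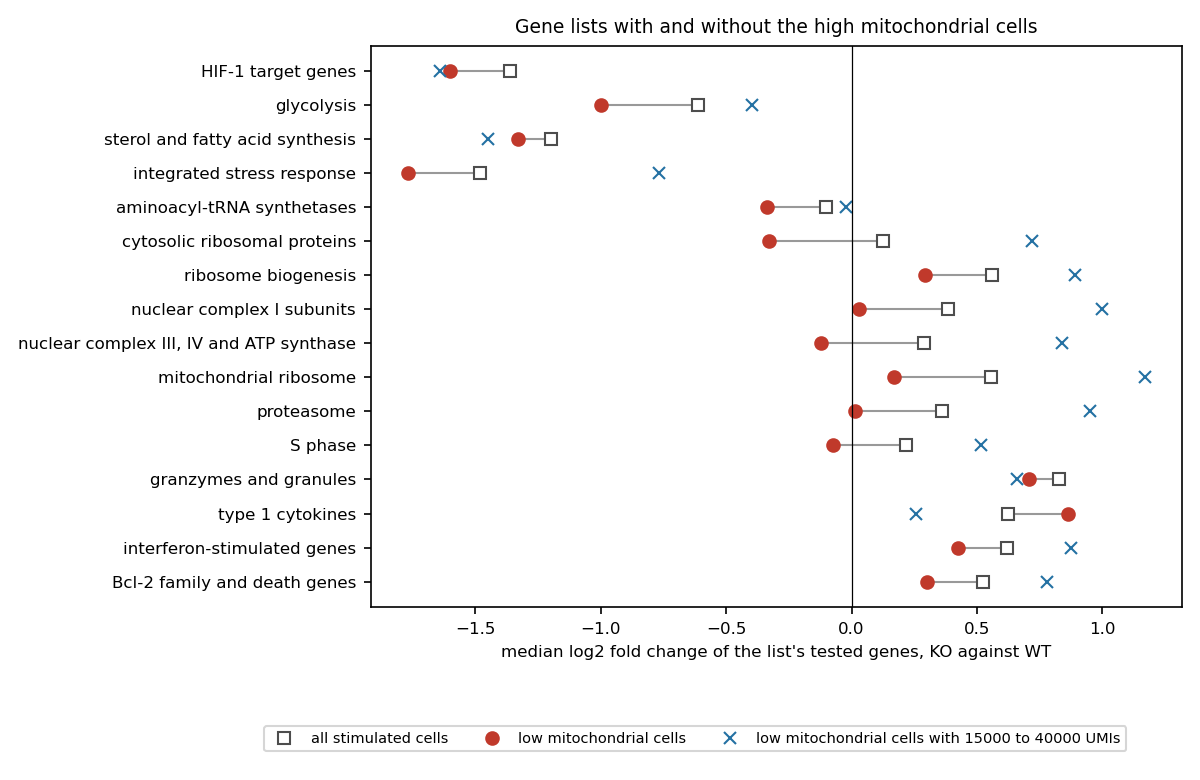
Median log2 fold change, KO against WT, of the tested genes of 16 lists in all stimulated T cells (open squares), in the low mitochondrial cells (filled circles) and in low mitochondrial cells of 15000 to 40000 UMIs (crosses). HIF-1 target genes and sterol genes lie at or below -1.2 in all 3 sets, while respiratory chain, mitochondrial ribosome, proteasome and ribosomal protein genes move toward 0 or past it with the limit and lie above 0.7 in the cells of 15000 to 40000 UMIs.

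Genes of the nuclear-encoded respiratory chain lost most of their calls of a rise in KO. Over all stimulated cells 26 of 36 complex I subunits were higher in KO and 1 lower (median 0.385), against 26.2% and 21.0% of all genes. In the low mitochondrial cells 7 were higher and 6 lower (median 0.0281), near the shares of all genes there (17.4% and 16.9%). Of 34 subunits of complexes III and IV and ATP synthase, 23 had been higher and 0 lower (median 0.29). With the limit 2 were higher and 13 lower (median -0.121), against the same 17.4% and 16.9% of all genes, so that the calls of this list turned to falls. In cells of 15000 to 40000 UMIs, however, the medians were 0.999 and 0.837, and in cells of over 40000 UMIs -0.0153 and -0.153. Without composition normalization the median of the second list turned positive (0.035). The direction of these lists thus differed between UMI ranges, and the part of transcriptome size was not tested beyond them.

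Single subunits moved apart from the lists. Ndufb10, an accessory subunit of complex I, was at 173 and 173 CPM in the WT libraries and 252 and 279 CPM in the KO libraries (log2 fold change 0.61 ± 0.07, adjusted p = 2.13e-04). Ndufv3, a subunit of the complex's NADH-oxidizing module, was at 324 and 360.1 CPM in the WT libraries and 131 and 114 CPM in the KO libraries (log2 fold change -1.48 ± 0.08, adjusted p = 5.07e-06). Both directions held in the CD4 class (0.67 and -1.51). Cycs, cytochrome c, rose by 0.29, and Uqcr11, a small complex III subunit, fell by 0.38 on the log2 scale. Uqcr11 was 0.47 in cells of 15000 to 40000 UMIs.

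Mitochondrial ribosome, TCA cycle and proteasome genes lost most of their calls of a rise as well. Of 46 mitochondrial ribosomal proteins 44 were higher over all stimulated cells (median 0.556), and 20 were higher and 2 lower with the limit (median 0.17). Mrpl3, a large-subunit protein, was among those that stayed higher (log2 fold change 0.53 ± 0.08, adjusted p = 0.00102). Of 17 TCA cycle genes other than those of succinate dehydrogenase, 9 had been higher and 1 lower, and with the limit 2 were higher and 2 lower (median 0.014). Cs, citrate synthase, fell (-0.48), and Suclg2, a subunit of the enzyme that makes succinate, rose (0.33). Of 31 proteasome subunits 30 had been higher (median 0.362), against 4 higher and 2 lower with the limit (median 0.0144). The medians of the 3 lists in cells of 15000 to 40000 UMIs were 1.17, 0.59 and 0.952.

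The mitochondrially encoded genes are part of the limit itself and are described without a test. Their 13 transcripts summed to 31760 and 30470 CPM in WT and 19440 and 19220 CPM in KO low mitochondrial cells, and their median log2 fold change was -0.764, against -1.41 without the limit. The median was -1.03 in CD4 and -0.408 in CD8.

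Cytosolic ribosomal proteins were lower in the low mitochondrial KO cells, where 0 of 49 were higher and 36 lower (median -0.33). Over all stimulated cells 14 were higher, a share near the 26.2% of all genes, and 4 lower (median 0.124). The high mitochondrial cells alone had a median of -0.546, so that both sets of cells had a negative median and their sum a positive one. The median was -0.364 in CD4 and -0.274 in CD8, but 0.719 in cells of 15000 to 40000 UMIs. Rpl41, which encodes the shortest ribosomal protein, fell most among them and was at 7644 and 7526 CPM in the WT libraries and 3557 and 3294 CPM in the KO libraries (log2 fold change -1.15 ± 0.07, adjusted p = 5.25e-06). Among the genes called in opposite directions were Rpl29 (0.26 over all stimulated cells, -0.21 with the limit), Atp5d, an ATP synthase subunit (0.25 and -0.19), Cfl1, the actin-severing cofilin (0.26 and -0.22), and Hdgf, a growth factor (0.31 and -0.17). These 4 had a positive value again in cells of 15000 to 40000 UMIs (0.96, 0.69, 0.94 and 0.81). Igf2r, the receptor that sorts lysosomal enzymes, went the other way (-0.25 and 0.31, with -0.48 in that range).

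Ribosome biogenesis genes, which make and assemble ribosomal RNA, kept part of their rise. Over all stimulated cells 34 of 38 were higher, and with the limit 22 were higher and 2 lower (median 0.294). In the CD8 class 35 of 38 were higher (median 0.574, 0.436 in the coreceptor-only set), and in the CD4 class 8 were higher and 4 lower (median 0.076). Bysl, a factor of the small subunit, was at 27.1 and 24.8 CPM in the WT libraries and 44.2 and 50.5 CPM in the KO libraries (log2 fold change 0.87 ± 0.09, adjusted p = 1.13e-04). Srm, spermidine synthase and a MYC target, was at 153 and 139.6 CPM in the WT libraries and 264 and 269.7 CPM in the KO libraries (log2 fold change 0.87 ± 0.07, adjusted p = 3.84e-05), whereas Myc did not pass the test (0.12, adjusted p = 0.359). Npm1, the abundant nucleolar phosphoprotein, fell in the CD4 class (log2 fold change -1.02 ± 0.08, adjusted p = 4.00e-06), with 0.12 at 15000 to 40000 UMIs.

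Serpine2, Tnip3, Phlda3 and, in the CD4 class, Dnm3 were among the largest rises and were called both in cells of 15000 to 40000 and in cells of over 40000 UMIs. Serpine2, a secreted protease inhibitor, was at 6.41 and 7.46 CPM in the WT libraries and 119 and 136 CPM in the KO libraries (log2 fold change 4.2 ± 0.10, adjusted p = 7.35e-08), which is 18.4-fold. Tnip3, an inhibitor of NF-kappaB signaling, was at 13.9 and 21 CPM in the WT libraries and 283 and 236 CPM in the KO libraries (log2 fold change 3.89 ± 0.17, adjusted p = 1.40e-06). Phlda3, a p53 target that restrains AKT, was at 12.3 and 12.8 CPM in the WT libraries and 82.3 and 111 CPM in the KO libraries (log2 fold change 2.94 ± 0.16, adjusted p = 4.21e-06). In cells of 15000 to 40000 UMIs the 3 genes had log2 fold changes of 3.77, 2.98 and 4.24, and in cells of over 40000 UMIs 4.26, 3.50 and 2.83. In the KO libraries the top 1% of cells held from 8.72% to 10.9% of their UMIs. Dnm3, a dynamin, was at 0.697 and 1.26 CPM in the WT libraries and 40.6 and 61.7 CPM in the KO libraries in the CD4 class (log2 fold change 5.68 ± 0.32, adjusted p = 3.46e-07), with 6.27 and 5.83 in the 2 ranges. The top 1% of all cells held 22.5% and 13.5% of its KO UMIs.

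Genes of cell survival and death mostly rose. Of 26 tested, 15 rose and 3 fell (median 0.299, against 0.522 over all stimulated cells and 0.777 at 15000 to 40000 UMIs). Bax, which permeabilizes the outer mitochondrial membrane, was at 183 and 185 CPM in the WT libraries and 448 and 548 CPM in the KO libraries (log2 fold change 1.44 ± 0.10, adjusted p = 1.50e-05). Bcl2, its antagonist, was at 446 and 468 CPM in the WT libraries and 312 and 227 CPM in the KO libraries (log2 fold change -0.76 ± 0.14, adjusted p = 0.00238), and in the CD8 class it fell by 1.18 on the log2 scale. The KO level of Bax was above the WT level, and that of Bcl2 below it, in all 4 pairings of libraries. Bcl2l11, which encodes the death inducer BIM, rose in the CD4 class (0.51).

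**Figure D4:**
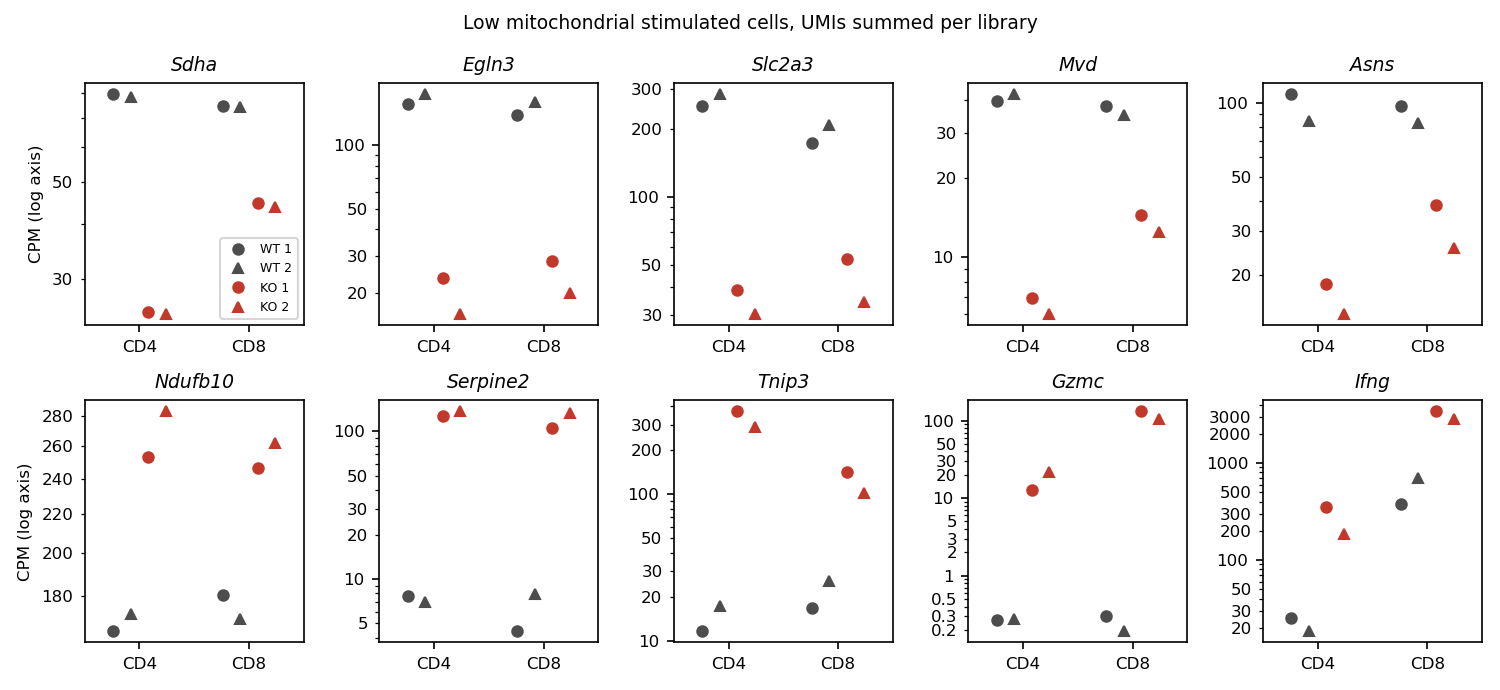
Level in CPM (log axis, a separate scale for each gene) of 10 genes in the low mitochondrial cells of each stimulated library, for the CD4 and the CD8 class (circles, replicate 1; triangles, replicate 2; gray, WT; red, KO). WT and KO points lie apart in each panel, with Sdha, Egln3, Slc2a3, Mvd and Asns lower and Ndufb10, Serpine2, Tnip3, Gzmc and Ifng higher in KO.

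Cytotoxic granule genes were higher in KO. Of 15 tested, 10 rose and 0 fell (median 0.708), and in the coreceptor-only CD8 set the calls were 10 higher and 0 lower (median 0.805). Gzmc, a granzyme of strongly stimulated killer cells, was at 0.299 and 0.191 CPM in the WT libraries and 132 and 106 CPM in the KO libraries in the CD8 class (log2 fold change 8.87 ± 0.24, adjusted p = 4.24e-08), with only 9 UMIs in each WT library over all T cells and a log2 fold change of 6.41 in CD8 cells with no Trdc UMI. The top 1% of cells held 82.7% and 94.5% of its UMIs in the KO libraries. Gzma, the tryptase granzyme, differed widely between the KO libraries at 404 and 84.3 CPM in CD8, against 9.56 and 18.4 CPM in WT (log2 fold change 4.11 ± 0.60, adjusted p = 3.78e-04). Prf1, perforin, was at 38 and 54.5 CPM in the WT libraries and 145 and 134 CPM in the KO libraries in CD8 (log2 fold change 1.59 ± 0.14, adjusted p = 1.95e-05), and it was 1.04 in the coreceptor-only CD8 set (adjusted p = 2.00e-05). Gzmb, the main granzyme of activated T cells, was at 3119 and 3968 CPM in the WT libraries and 5369 and 5339 CPM in the KO libraries in CD8 (log2 fold change 0.60 ± 0.11, adjusted p = 0.00215). Its log2 fold change was 0.00 in CD8 cells with no Trdc UMI (adjusted p = 0.985) and 0.01 in the coreceptor-only set (adjusted p = 0.962). Over all T cells Gzmb did not pass the test (0.30, adjusted p = 0.233), and its KO effect was lower in the low than in the high mitochondrial cells (difference -1.19 ± 0.09, adjusted p = 1.21e-05). Within the classes that difference was -0.69 in CD4 (adjusted p = 1.66e-04) and -0.71 in CD8 (adjusted p = 0.00124).

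Of 16 type 1 cytokine genes 11 rose and 1 fell over all T cells (median 0.861, against 0.625 over all stimulated cells). In the CD8 class 13 rose and 1 fell, and in CD4 6 rose and 4 fell. The test between the classes called 5 more positive and 2 more negative in CD8, and the median difference of 0.335 turned to -0.15 without KO replicate 2 and -0.134 without WT replicate 1. Ifng, interferon gamma, was at 376 and 694 CPM in the WT libraries and 3419 and 2878 CPM in the KO libraries in CD8 (log2 fold change 2.56 ± 0.22, adjusted p = 1.40e-05) and at 25.4 and 18.4 CPM in the WT libraries and 349.7 and 183 CPM in the KO libraries in CD4 (log2 fold change 3.61 ± 0.42, adjusted p = 7.46e-05), and the difference between the classes did not pass the test (-0.97 ± 0.37, adjusted p = 0.115). Its CD8 log2 fold change was 2.31 in the coreceptor-only set and 0.74 in cells of 15000 to 40000 UMIs. Over all T cells the value in that range was -0.10 (adjusted p = 0.869). The top 1% of cells held from 49% to 54.6% of the Ifng UMIs of the KO libraries. Csf2, which encodes GM-CSF, was at 0.747 and 11 CPM in the WT libraries and 55 and 60.7 CPM in the KO libraries in CD8 (log2 fold change 3.23 ± 0.52, adjusted p = 9.60e-04). Ccl3, a chemokine that draws macrophages and T cells, was at 105 and 85.1 CPM in the WT libraries and 497 and 843 CPM in the KO libraries in CD8 (log2 fold change 2.82 ± 0.20, adjusted p = 4.02e-06). Tnf fell in CD4 (-0.71) and rose in CD8 (0.86), but both signs turned in the few cells with the central memory label (0.40 and -0.24). Il2, the T cell growth factor, fell in CD4 (-0.54, with 0.15 at 15000 to 40000 UMIs) and did not pass the test in CD8 (-1.66, adjusted p = 0.18). Ltb, lymphotoxin beta, was the list member that fell over all T cells (-1.26).

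Of 18 genes of the type 2, type 17 and regulatory programs 9 rose and 1 fell. The top 1% of cells held from 47.7% to 100% of the KO UMIs of 8 of the 9, and from 7.59% to 9.1% of those of the other, Gata3, the transcription factor of type 2 helper cells. Il17a, the cytokine of type 17 helper and some gamma-delta cells, had 0 UMIs in the WT libraries and 2975 UMIs in KO CD4 cells. Its KO level of 49.5 CPM, not scaled by TMM, was at least 678-fold higher than the floor of 3 counts over the WT group. The top 1% of cells held 98.3% and 100% of its UMIs in the KO libraries, and a single cell of the first held 1285. Il13, a type 2 cytokine, was at 8.3 and 0.626 CPM in the WT libraries and 87.5 and 16.9 CPM in the KO libraries (log2 fold change 3.59 ± 0.98, adjusted p = 0.0254), and 1724 of the 4269 UMIs of the first KO library came from 1 cell.

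Interferon-stimulated and antigen presentation genes rose in part over all T cells. Of 43 interferon-stimulated genes, 18 rose and 1 fell (median 0.425), with 18 higher and 2 lower of 43 in CD4. In the CD8 class 9 were higher and 6 lower of 42, near the shares of all genes called in that class that are given above. The CD8 counts thus show no rise of the list. In cells of over 40000 UMIs the median was 0.0217, with 7 higher and 5 lower, against 2365 and 2276 of 13599 genes there. Zbp1, a sensor of unusual nucleic acids, was at 27.1 and 24.3 CPM in the WT libraries and 57.3 and 78.7 CPM in the KO libraries (log2 fold change 1.41 ± 0.15, adjusted p = 1.49e-04). Of 20 MHC class I presentation genes 11 rose and 1 fell (median 0.262). Psmb10, an immunoproteasome subunit, was at 104 and 93.1 CPM in the WT libraries and 148 and 154 CPM in the KO libraries (log2 fold change 0.62 ± 0.10, adjusted p = 0.0013).

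The effect on Pdcd1 was more positive in CD8 than in CD4 (difference 1.62 ± 0.13, adjusted p = 6.65e-04). Pdcd1, which encodes PD-1, was at 12.2 and 11.1 CPM in the WT libraries and 31.2 and 45.8 CPM in the KO libraries in CD8 (log2 fold change 1.72 ± 0.17, adjusted p = 3.66e-05) and did not pass the test in CD4 (0.07, adjusted p = 0.816). Ctla4, the inhibitory receptor that competes with CD28, fell in both (-0.76 and -1.61). Of 20 quiescence and stem-like memory genes 10 rose and 4 fell in CD4, and 3 rose and 8 fell in CD8. The test between the classes called 1 more positive and 10 more negative in CD8 (median difference -0.396), but 3 and 5 between the coreceptor-only sets (median 0.0679). Il7r, the receptor that keeps resting T cells alive, was at 22.5 and 28.2 CPM in the WT libraries and 87.6 and 61.7 CPM in the KO libraries in CD4 (log2 fold change 1.55 ± 0.15, adjusted p = 1.82e-05).

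S phase genes lost most of the calls seen in all stimulated cells. Of 30, 15 had been higher and 2 lower (median 0.215), and with the limit 4 were higher and 4 lower (median -0.0745). In cells of 15000 to 40000 UMIs the calls were 20 higher and 2 lower (median 0.514), against 2938 and 2732 of 10341 genes there. Of 30 G2M genes 6 had been higher and 7 lower (median -0.0397), near the shares of all genes over all stimulated cells (26.2% and 21.0%). With the limit 1 G2M gene was higher and 9 lower (median -0.148), against 17.4% and 16.9% of all genes. Tyms, thymidylate synthase, rose (0.46), and Hells, a chromatin remodeler of replicating cells, fell (-0.40). Bub1, a mitotic checkpoint kinase, fell (-0.72), while Mki67 did not pass the test (-0.26, adjusted p = 0.0641). In the coreceptor-only CD8 set, whose KO cells have fewer UMIs, 0 rose and 18 of 30 S phase genes fell (median -0.396), and 0 rose and 20 of 30 G2M genes fell (median -0.566). Without composition normalization the S phase and G2M medians over all T cells were 0.0813 and 0.00808. In cells of over 40000 UMIs the G2M median was 0.173 over all T cells, with 12 higher and 1 lower.

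Of the 6 largest differences lost with the limit over all T cells, 5 were falls and 1, Plac8, was a rise (1.06 over all stimulated cells, 0.70 with the limit, adjusted p = 0.132). Cmss1, a nucleolar protein gene, had a log2 fold change of -1.29 over all stimulated cells and -0.19 with the limit (adjusted p = 0.085). Lrrc4 went from -1.02 to -0.06 and Oprm1 from -0.95 to -0.12. Their low mitochondrial levels overlapped between genotypes, at 18.9 and 19.3 CPM in WT and 19.2 and 17.5 CPM in KO for Lrrc4. The unnamed genes Gm19951 (-0.93 to -0.17) and Gm36975 (-1.05 to -0.05) behaved alike. Among CD4 cells Cdk8, a kinase of the Mediator complex, went from -1.05 to -0.09 and Lars2, the mitochondrial leucyl-tRNA synthetase, from -1.25 to -0.17. In the CD8 class both stayed lower (-0.94 and -1.07).

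Whether the KO effect itself differed between low and high mitochondrial cells was tested within libraries. It did for 1815 of 15031 genes (12.1%), of which 838 (5.58%) had a more positive and 977 (6.5%) a more negative effect in the low mitochondrial cells. The high cells were from 95.1% to 97.2% of the central memory label and from 45.0% to 49.2% of the CD4 class, so that the 2 sets differ in both. Within the CD4 class 547 of 14244 genes were called (143 more positive and 404 more negative). Within the CD8 class 591 of 13457 were (310 and 281). Cytosolic ribosomal proteins were more positive in the low cells for 29 of 49 (median difference 0.233), with 9 within CD4 (0.0645) and 29 within CD8 (0.327). Sterol synthesis genes were more negative for 15 of 29 and ER chaperones for 15 of 24, with median differences of -0.439 and -0.463. Within CD4 these counts were 7 and 8, and within CD8 3 and 8. Ribosome biogenesis genes were more negative for 18 of 38 and more positive for 1 (6 and 1 within CD4, 5 and 0 within CD8). HIF-1 target genes were split, 4 more positive and 4 more negative of 30, with a median difference of -0.013. Lars2 (1.48 ± 0.09, adjusted p = 4.83e-06) and Cmss1 (1.44 ± 0.08, adjusted p = 2.15e-06) were among the most positive differences, with log2 fold changes in the high cells of -1.87 and -1.63 against -0.38 and -0.19 in the low ones. Within CD4 the differences were 1.66 and 1.55, and within CD8 0.80 and 0.82. Ccnb1ip1, a ubiquitin ligase gene of meiosis, was among the most negative (-1.77 ± 0.22, adjusted p = 2.91e-04). Tcrg-C2, a gamma-delta receptor constant gene, rose less in the low cells than in the high ones over all T cells (-1.57 ± 0.25, adjusted p = 0.00165), but within the classes the difference did not pass the test (-0.74, adjusted p = 0.739 in CD4, -1.01, adjusted p = 0.091 in CD8).

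The KO effect also differed between CD8 and CD4 low mitochondrial cells, for 2484 of 13616 genes (18.2%), of which 1316 (9.67%) were more positive and 1168 (8.58%) more negative in CD8. With the coreceptor-only sets 909 of 12855 genes were called, 458 more positive and 451 more negative in CD8. Ribosome biogenesis genes were more positive in CD8 for 33 of 38 (median difference 0.5), and for 18 of 38 between the coreceptor-only sets (median 0.383). Sterol synthesis genes fell less in CD8, with 20 of 29 more positive (0.634), and 8 of 29 between the coreceptor-only sets (0.385). ER chaperones were more positive in CD8 for 17 of 24 (0.568), but 0 were more positive and 1 more negative between the coreceptor-only sets (0.0249). The interferon-stimulated genes were more negative in CD8 for 16 of 38 (-0.481), and for 8 of 36 between the coreceptor-only sets (-0.443). Inhibitory receptors, at 3 more positive and 2 more negative of 15, had 6 more positive and 2 more negative of 14 between the coreceptor-only sets (median 0.658).

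**Figure D5:**
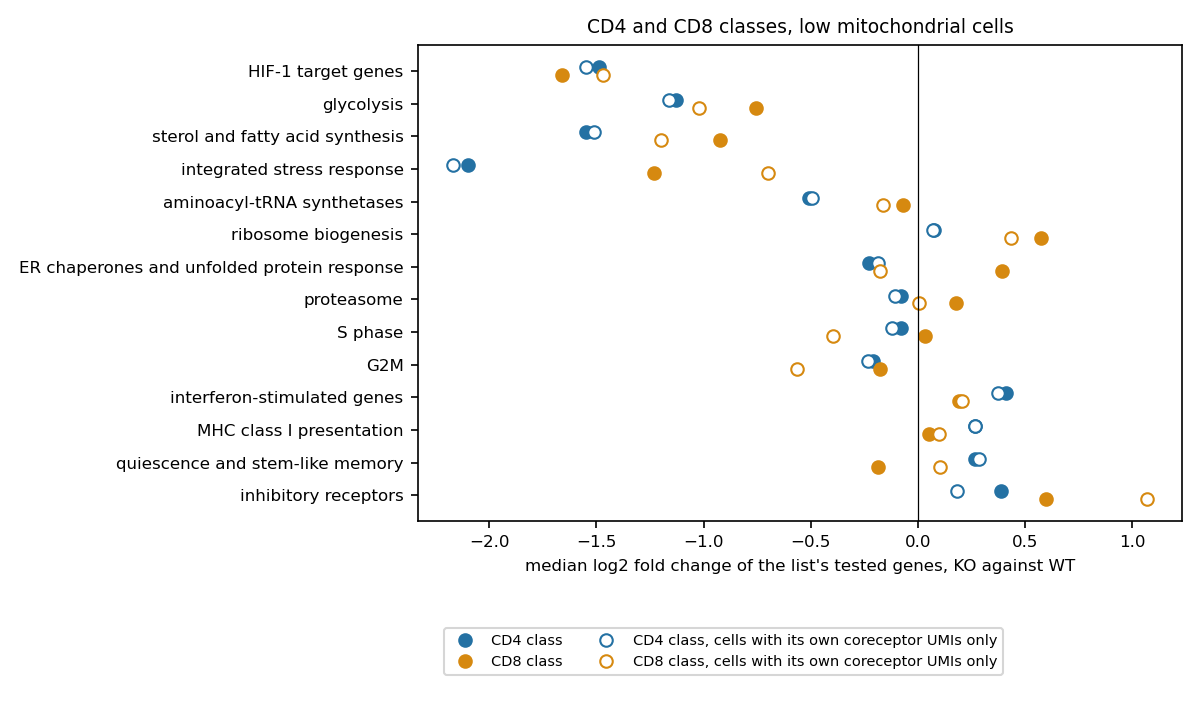
Median log2 fold change, KO against WT, of the tested genes of 14 lists in low mitochondrial cells of the CD4 (blue) and CD8 (orange) class, for every cell (filled) and for cells with UMIs of their own coreceptor only (open). The CD8 median of ER chaperones moves from 0.392 to -0.177 and that of the S phase genes from 0.0334 to -0.396 with the coreceptor-only cells, while the CD4 medians of the 2 lists are -0.227 and -0.0806 and become -0.186 and -0.121.

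Single genes set the classes apart. The KO effect on Mt1 was more negative in CD4 than in CD8 (difference 2.80 ± 0.23, adjusted p = 7.15e-04). Lta, lymphotoxin alpha, fell in CD4 (-1.47) and rose in CD8 (0.86), with a difference of 2.31 ± 0.07, adjusted p = 2.45e-05. Between the coreceptor-only sets the differences of the 2 genes were 1.47 and 1.88. Tnip3 rose more in CD4 (-2.0 ± 0.09, adjusted p = 1.02e-04), as did Ms4a4c, a membrane protein gene of the MS4A family (-2.04 ± 0.19, adjusted p = 0.001). Sesn3, a sestrin that restrains mTORC1, rose in CD4 (1.78) and did not pass the test in CD8 (0.12, adjusted p = 0.479), with a difference of -1.68 ± 0.13, adjusted p = 5.49e-04. Hist1h1a, a linker histone of dividing cells, had a more negative effect in CD4 (1.89 ± 0.12, adjusted p = 4.21e-04).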

How the data were processed

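Splenic T cells of 2 genotypes were cultured for 48 hours with anti-CD3 (5 µg/mL) and anti-CD28 (2.5 µg/mL) or left unstimulated, with 2 libraries per group. Per the labels' processing notes the authors used bcl2fastq and Cell Ranger with mm10, versions not given in the sources used here. They deposited whole-number UMI counts per gene and cell (20170 genes, 12846 cells) and a cell annotation with the class, the memory label and percent.mt, the percent of mitochondrial UMIs, which the authors computed. No other value column was found (0 columns). No doublet caller was run.

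Cells with percent.mt under 10 were kept, and the deposited counts were summed per library and class. Sums of the 8 libraries in 4 groups were fitted together with edgeR 4.0.16 (R 4.3.3; filterByExpr with a minimum count of 10 and total of 15, TMM, quasi-likelihood test, Benjamini-Hochberg at 0.05). CPM of single genes and of gene lists are TMM-scaled, and those of marker genes and of Il17a are not. The 2 difference tests blocked on library and had 2 residual degrees of freedom. The fits were tested on simulated data first. The alternatives, DESeq2 1.42.0 among them, are given in the closing section, and those on cells of over 40000 UMIs, on crossed numbers, on low against high cells within a class and on leaving libraries out of the fits without a limit were chosen after seeing the data. An exact permutation test of 2 against 2 libraries cannot go below p = 0.33. Stimulated sums over all T cells held from 31519597 to 46063493 UMIs. Those of the CD4 class held from 18947498 to 33106458 and those of the CD8 class from 12572099 to 16705536. Unstimulated sums over all T cells held from 10947009 to 14878006, and those of the CD8 class from 3640136 to 5398919. Low genes are the least precise. Libraries of one group differed by more than sampling noise.

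The cells and the 33 gene lists (801 of 804 genes found) were chosen with earlier results of these data known. Genes were named by rule: in each comparison the 8 largest called rises and falls at 20 CPM or more with no overlap between WT and KO libraries, the called list member with the largest rise and fall, the 6 largest differences each way, the 6 largest lost and up to 6 opposite calls, and a set of anchor genes. Some genes that the rule names are not reported here. Promoters are RefSeq's for GRCm38.p6.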

Additional observations from a re-analysis of the deposited data

Results flagged for a closer look

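The KO effect differed between low and high mitochondrial cells, by the interaction term of edgeR's fit, most widely for 12 genes of at least 20 CPM. It was more negative in the low cells for Ramp3 (difference of log2 fold changes -1.81), a receptor-modifying protein gene, Ccnb1ip1 (-1.77), Tcrg-C2 (-1.57), Ttc39c (-1.54), Nwd1 (-1.51) and Sox5 (-1.47), a transcription factor gene. It was more positive for Ust (1.54), Lars2 (1.48), Dnm3 (1.47), Cmss1 (1.44), Ly6c1 (1.42), a surface protein of memory T cells, and Spry1 (1.39), an inhibitor of receptor signaling. Within the CD4 and the CD8 class the test still called Ccnb1ip1, Ust, Lars2 and Cmss1 in both, Ramp3 in CD4 alone, Ttc39c, Nwd1, Sox5, Ly6c1 and Spry1 in CD8 alone, and Tcrg-C2 and Dnm3 in neither.

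The KO effect differed between CD8 and CD4 low mitochondrial cells, by the same kind of test, most widely for another 12. It was more negative in CD8 for Tmem108 (-2.06), Ms4a4c (-2.04), Tnip3 (-2.0), Sesn3 (-1.68), Ulbp1 (-1.48), which encodes a ligand of the receptor NKG2D, and Scml4 (-1.43). It was more positive for Mt1 (2.80), Lta (2.31), Ccnb1ip1 (2.26), Nrn1 (2.03) and Hist1h1a (1.89). Iglc2, an immunoglobulin light chain gene of B cells, had a difference of 12.98 that rested mostly on 1 WT CD4 library at 327 CPM, against 0 CPM in the other. The first KO library also held 233 UMIs of it in CD8 and 45 in CD4, and the second held 0 in both.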

How the results depend on the processing

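Counts of genes called in each comparison, and of differences that remained, kept within 1.5 times of their value except where given here, and the cause of a change was not tested unless the setting itself removes cells, genes or libraries. In low mitochondrial T cells (4997 genes called) there were 364 at a 2-fold threshold, 2869 in cells with the central memory (Tcm) label, 2848 among genes of at least 20 CPM, 2958 after thinning cells to 5000 UMIs, and 2924 to 4333 with 1 library left out, the lowest without WT replicate 2 and 3154 without WT replicate 1. In the CD4 class (4492) these were 424, 1576, 2686, 2242 and 2865 to 3819, with 2973 by DESeq2, 2865 without WT replicate 2 and 2923 without WT replicate 1. In the CD8 class (4459) they were 211, 2245, 2916, 1783 and 2776 to 3587, with 2643 by DESeq2 and 2776 without WT replicate 2. No unstimulated cell of the CD4 class had the Tcm label, none of the CD8 class had the Tem label, and none of either class had over 40000 UMIs. Those settings were therefore fitted on the 4 stimulated libraries. Of the differences that remained, 4050 in all T cells became 2502 (Tcm), 2072 (20 CPM), 2566 (thinned) and 2546 to 3564 (1 library left out; 2546 without WT replicate 2, 2656 without WT replicate 1). The 3564 of the CD4 class became 1329, 1907, 2005 and 2416 to 3125, and the 3839 of the CD8 class 2021, 2356, 1601 and 2514 to 3113, with 2401 by DESeq2 and 2514 without WT replicate 2. Without a limit, the CD4 class gave 4020 to 5556 with 1 library left out (4020 without WT replicate 1), all T cells 4860 to 6368 and the CD8 class 4675 to 5632. The 40 opposite calls in all T cells ranged from 1 (limit of 15%) to 104 (limit of 5%), with 8 to 15 when 1 library was left out, the 5 in CD4 from 0 to 39 and the 22 in CD8 from 0 to 144 (coreceptor-only set). The 907 new calls ranged from 363 to 1390, with 370 without WT replicate 2 and 486 without WT replicate 1, the 923 in CD4 from 237 to 1551 and the 598 in CD8 from 175 to 970.

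For the difference between low and high mitochondrial cells (1815), DESeq2 called 1016, thinned cells 959, the CD4 class alone 547 and the CD8 class alone 591. At 2-fold edgeR called 0, with 340 genes at an unadjusted p under 0.05, and leaving out 1 library gave 1011 to 1892 (1011 without WT replicate 2, 1107 without WT replicate 1). For the difference between CD8 and CD4 (2484), DESeq2 called 1096, the coreceptor-only sets 909, the 2-fold threshold 14, and leaving out 1 library gave 1454 to 2188 (1454 without KO replicate 1, 1523 without WT replicate 2). Replicate numbers did not pair the samples: deviations of same-numbered WT and KO libraries correlated at -0.0166 in all T cells, -0.0222 in CD4 and -0.143 in CD8. A replicate block gave 4802, 4295 and 4224 calls, and crossed numbers 4501 in CD8. Leaving out the library block gave no replicate block fits with 692 and 1334 calls for the 2 differences.

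Under every alternative, the 2-fold threshold included, the call held for 28 of 137 named genes in all T cells, 39 of 131 in CD4 and 25 of 135 in CD8. Signs were reversed in 55 cases in all T cells, 59 in CD4 and 51 in CD8, a case being 1 named gene under 1 alternative. Only a part of the sign changes is listed here, besides Ifng, whose negative value over all T cells in cells of 15000 to 40000 UMIs is given above. In cells of 15000 to 40000 UMIs the log2 fold change over all T cells was 0.24 for Atf4, 0.69 for Atp5d, 0.94 for Cfl1, -0.90 for Gzmb, 0.81 for Hdgf, -0.48 for Igf2r, 0.10 for Ldha, 0.31 for Phgdh, 0.0028 for Psph, 0.96 for Rpl29 and 0.47 for Uqcr11, and in CD4 0.15 for Il2 and 0.12 for Npm1. In Tcm cells it was 0.28 for Atf4, 0.85 for Atp5d, 1.22 for Cfl1, 0.77 for Hdgf, -0.21 for Igf2r, 0.093 for Ldha, 0.49 for Phgdh, 0.84 for Rpl29 and 0.60 for Uqcr11, and for Tnf 0.40 in CD4 and -0.24 in CD8. In cells with no Trdc UMI Gzmb was -0.73 over all T cells. The WT sums of 15000 to 40000 UMIs came from 76 and 95 cells, which limits their precision.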
